A study of Mus musculus with 14 samples.

Results

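The comparison set all lungs that had received carbon fibre against lungs that had received saline, across the mouse transcriptome. The 11 fibre arrays were those of the title groups VCF, CCF and RCF, out of 14 arrays in the series, and the other 3 were the Ctrl arrays. VCF was carbon fibre before recycling (4 lungs), CCF fibre after the carbonization step (3 lungs) and RCF fibre after the firing step (4 lungs), and Ctrl was the PBS vehicle (3 lungs). Each fibre was placed in the trachea at 200 µg per mouse, and whole lungs were taken 6 months later. All animals were male C57BL/6N mice, their age is not given in the sources used here, and by the design text each array held an independent biological sample. The 3 fibre groups were weighted equally. A difference below is the mean of the VCF, CCF and RCF means minus the Ctrl mean, unless it names a fibre, slide or setting. Differences are on a log2 scale, with the standard error (SE) where given.

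Fibres that are too long or too durable to be cleared from the lung are taken up, partly or wholly, by alveolar macrophages, the resident phagocytes of the air spaces. Persistent particles are known to engage a few shared programmes in the lung. These are phagocyte activation with release of chemokines, the oxidative stress response driven by the transcription factor Nrf2, metal-binding metallothioneins, and matrix deposition by fibroblasts. The design asks which of these, or other programmes, still differed between fibre and vehicle lungs after 6 months, whichever recycling step the fibre had passed through.

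RNA was labelled with Cy3 and hybridized to one-colour oligonucleotide arrays with 41174 probes. Levels are log2 of the processed signal minus the 75th percentile of the same array, called the relative log2 signal, so 0 is the 75th percentile. That percentile lay between 725 and 1346 intensity units, and each array had 63.07% to 70.62% of its probes well above background. Precision is limited by how few arrays there are, and the median SE of a gene's difference was 0.15. The tissue label held: surfactant protein C (Sftpc) stood between 8.85 and 9.37 in fibre lungs and between 8.75 and 9.44 in Ctrl lungs, and the club cell protein gene Scgb1a1 between 8.68 and 9.11 and between 8.64 and 9.10. Transcripts of other tissues varied between lungs. A list score below is the average, over the genes of a list, of how far a lung lay from the mean of the Ctrl lungs. Liver genes scored 3.23 in CCF replicate 2 and 3.08 in RCF replicate 1, thymus genes 1.94 in CCF replicate 3, and adipose genes 2.56 in VCF replicate 1. In Ctrl lungs the scores of these lists lay between -0.12 and 0.12, between -0.15 and 0.09, and between -0.52 and 0.57. Ctrl replicate 1 stood apart in neutrophil genes, with a score of 1.03 against -0.57 and -0.47 in Ctrl replicates 2 and 3.

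Only 1 of the 29271 probes tested passed in limma at a Benjamini-Hochberg adjusted p under 0.05 (0.00342% of probes), and it was higher in fibre lungs. At an unadjusted p under 0.05 there were 1950 probes (6.66%), 1263 higher (4.31%) and 687 lower (2.35%), where 1464 would be expected by chance. Counted over 14468 genes, each at its brightest probe, 1 passed the adjusted threshold (0.00691%), 44% lay above 0 and 56% below, and 423 were higher (2.92%) and 416 lower (2.88%) at that level. Counts of a list's genes above or below 0 are to be read beside those 44% and 56%. All genes of a list share the same 3 Ctrl lungs, so such counts are not independent. A stricter description of a shared difference is that all 11 fibre lungs lay on one side of all 3 Ctrl lungs. This held upward for 65 genes (0.449%) and downward for 54 (0.373%), the background for the genes below, which were picked for it. The arrays were read on 4 slides in 4 scan sessions, and slides 1, 2 and 3 each held 1 Ctrl array while slide 4 held none. A difference within a slide is the mean of its fibre lungs minus its 1 Ctrl lung. The fibre lungs of slide 2 were VCF replicate 4 and RCF replicate 4, so values within slide 2 leave out CCF.

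**Figure D1:**
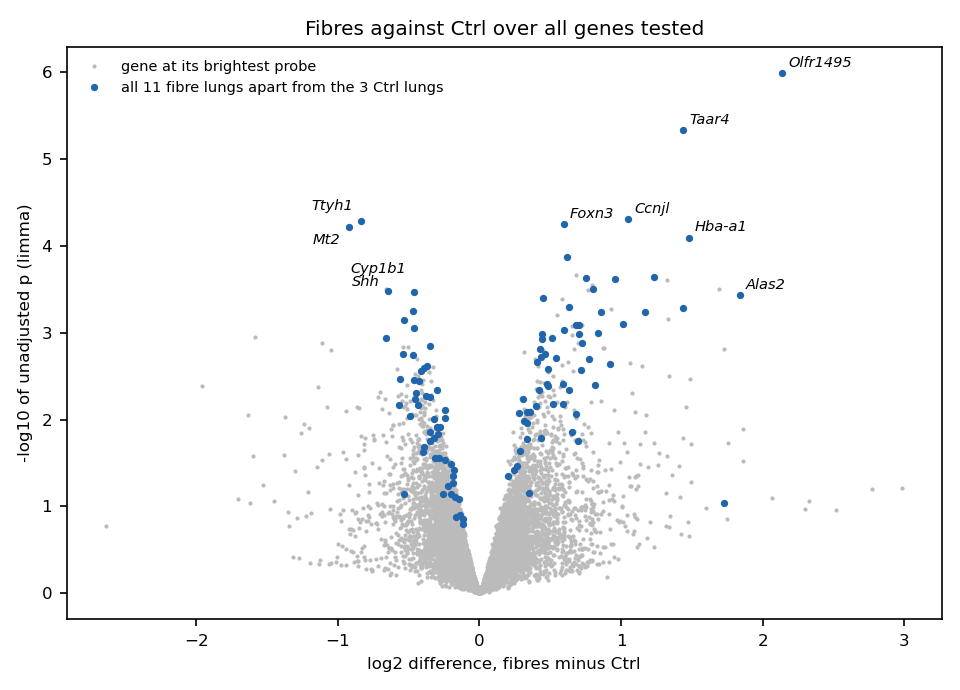
Log2 difference of fibres minus Ctrl (horizontal) against -log10 of the unadjusted p from limma (vertical) for 14468 genes at their brightest probe, with genes whose 11 fibre lungs all lay apart from the 3 Ctrl lungs, at signal above background on the brighter side, in blue. Olfr1495 (2.14) and Taar4 (1.44) lie uppermost on the right, and Mt2 (-0.92) and Ttyh1 (-0.84) on the left.

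The 2 genes with the smallest p both encode chemosensory receptors and both gave dim signals. Olfr1495 (probe A_51_P192639) encodes an olfactory receptor, a class known from the nose. Its relative log2 signal was -4.03, -4.53, -3.72 and -4.13 in VCF lungs, -4.05, -4.21 and -4.97 in CCF lungs, and -4.88, -4.35, -5.18 and -5.35 in RCF lungs, against -6.30, -6.79 and -6.78 in Ctrl lungs. The groups did not overlap, and it rose by 2.14 (SE 0.24, adjusted p = 0.0297 in limma), a 4.4-fold difference. It was well above background in 11 of 11 fibre lungs and 1 of 3 Ctrl lungs, so the size of the difference rests on Ctrl signals near background. Within slides 1, 2 and 3 the difference was 1.72, 2.04 and 2.26. With normexp background correction, whose offset of 50 shrinks the differences of dim probes, the difference was 0.27 and no probe passed. The call was lost there, with slides as blocks (2.01, adjusted p = 0.238 in limma), and without any 1 of the 3 Ctrl lungs (2.06 to 2.30). It was also lost without VCF replicate 3 (2.10), VCF replicate 4 (2.14), CCF replicate 2 (2.11), RCF replicate 1 (2.13) or RCF replicate 3 (2.17), each left out alone.

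Taar4, a trace amine receptor gene, lay between -5.03 and -4.02 in fibre lungs (median -4.31) and at -6.04, -5.66 and -5.88 in Ctrl lungs. All 11 fibre lungs stood above the Ctrl lungs, 2 of which were well above background. The difference of 1.44 (SE 0.19) missed the threshold (adjusted p = 0.0674 in limma), and it was 0.19 with normexp correction. A second olfactory receptor gene, Olfr1255, differed by 1.44 (SE 0.31), with 2 of 3 Ctrl lungs well above background. Most receptor genes did not share this direction. All 11 fibre lungs lay above all 3 Ctrl lungs in 4 of 268 receptor genes and below them in 0, beside 0.449% and 0.373% of all genes. That upward share is larger than over all genes, but it includes Olfr1495 and Taar4, which were picked for lying apart. Of 268 olfactory and trace amine receptor genes tested, 106 were above 0 and 162 below, with a median of -0.09, beside -0.02 over all genes. At an unadjusted p under 0.05, 8 of the 268 were higher and 1 was lower, shares near or below the 2.92% and 2.88% of all genes.

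Several transcripts of red blood cells and their precursors were among the leading differences. Hba-a1, which encodes the alpha chain of adult haemoglobin, was 2.78-fold higher in fibre lungs. Alas2, the enzyme that starts haem synthesis in red cell precursors, was 3.57-fold higher. Both genes carry an erythroid programme that GATA1 is known to drive, and the start regions of both genes are shown for that reason. They run from 250 bases before to 30 bases after the transcript start, in RefSeq sequence on GRCm38.p6, both on the plus strand, at chr11:32283422-32283701 for Hba-a1 and chrX:150547167-150547446 for Alas2. Capitals mark AGATAA or TGATAA on either strand.
Hba-a1: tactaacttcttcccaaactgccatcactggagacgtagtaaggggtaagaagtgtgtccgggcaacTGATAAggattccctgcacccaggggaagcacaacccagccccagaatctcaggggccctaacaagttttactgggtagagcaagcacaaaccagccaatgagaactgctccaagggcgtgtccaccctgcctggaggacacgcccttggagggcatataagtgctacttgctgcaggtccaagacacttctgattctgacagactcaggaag
Alas2: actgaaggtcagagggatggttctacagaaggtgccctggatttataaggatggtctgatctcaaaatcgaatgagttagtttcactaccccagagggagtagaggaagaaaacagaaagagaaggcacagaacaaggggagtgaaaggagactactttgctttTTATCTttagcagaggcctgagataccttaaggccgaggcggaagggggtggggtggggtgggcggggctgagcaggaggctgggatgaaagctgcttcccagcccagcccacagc
Each holds 1 such match, as do 17.8% of 32541 promoters of the same length with at least 1, so the letters are common. The same window of the beta-globin gene Hbb-bt, described below, holds none. A match in this window is no evidence of binding.

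In Hba-a1 the relative log2 signal was 8.41, 8.48, 8.48 and 8.64 in VCF lungs, 8.84, 7.80 and 7.32 in CCF lungs, and 7.96, 8.42, 8.30 and 8.09 in RCF lungs, against 6.76, 7.20 and 6.29 in Ctrl lungs. The groups did not overlap, CCF replicate 3 came nearest to the Ctrl lungs, and the CCF lungs spread more widely than the VCF lungs. The difference was 1.48 (SE 0.26, adjusted p = 0.147 in limma), and 1.75, 1.23 and 1.44 in VCF, CCF and RCF, which share the Ctrl lungs. It was 1.78, 1.17 and 1.62 within slides 1, 2 and 3. Alas2 stood at 3.20, 3.77, 3.69 and 4.21 in VCF lungs, 4.23, 2.67 and 2.10 in CCF lungs, and 2.80, 3.24, 3.35 and 3.15 in RCF lungs, against 1.57, 2.06 and 0.71 in Ctrl lungs. Again no fibre lung overlapped the Ctrl lungs, although CCF replicate 3 lay only just above Ctrl replicate 2. The difference was 1.84 (SE 0.38, adjusted p = 0.282 in limma).

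The beta-globin gene Hbb-bt, which lies outside the rule for named genes and was chosen after its values were seen, differed by 0.72 (SE 0.19) at its brightest probe. Its other 2 probes gave 1.98 and 1.11, so the size depended on the probe. Near-identical globin copies may also share signal.

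Across the red blood cell list, 18 of 23 genes were measured, 16 of them were above 0 and 2 below, with a median of 0.49 beside -0.02 over all genes. At an unadjusted p under 0.05, 7 of 18 were higher and 0 lower, beside 2.92% and 2.88% of all genes. None passed over all probes. The median was 0.82 in VCF, 0.40 in CCF and 0.40 in RCF. Members of this list did not move in step: the phosphoglycerate enzyme gene Bpgm differed by 0.47, while Klf1, the erythroid transcription factor, differed by -0.40 and Hemgn by -0.07. Ctrl replicate 1 had a list score of 0.46, inside the fibre range of 0.06 to 1.08. Without it the median was 0.86, and with normexp correction 0.08. Whole lungs hold blood, and in bulk RNA a different number of cells and a different amount of RNA per cell cannot be told apart, here and for every cell type below.

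**Figure D2:**
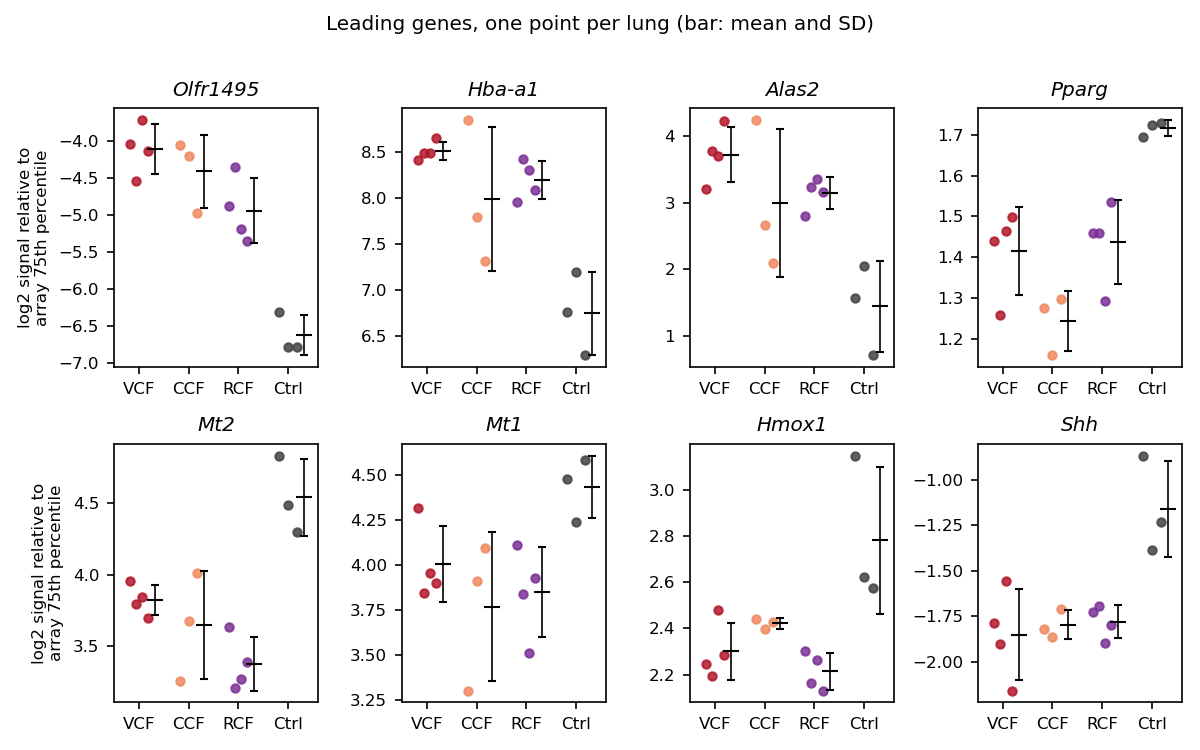
Relative log2 signal (vertical) of 8 genes in each lung, by group, with 1 point per lung and a bar for the mean and SD of the group. Hba-a1 and Alas2 lie above and Pparg, Mt2, Hmox1 and Shh below the 3 Ctrl lungs in all 11 fibre lungs, while 1 fibre lung overlaps Ctrl in Mt1.

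The metallothionein genes Mt2 and Mt1 had lower means in fibre lungs, without passing the test. They encode small cysteine-rich proteins that bind zinc, copper and cadmium, and both are induced through the metal-sensing factor MTF1 as well as by glucocorticoids and oxidative stress. Their promoters lie close together on chromosome 8 and are shown for the metal response elements they are known for. The windows are those used above, on the plus strand, at chr8:94172368-94172647 for Mt2 and chr8:94178839-94179118 for Mt1. Capitals mark the core TGCACNC or TGCGCNC on either strand.
Mt2: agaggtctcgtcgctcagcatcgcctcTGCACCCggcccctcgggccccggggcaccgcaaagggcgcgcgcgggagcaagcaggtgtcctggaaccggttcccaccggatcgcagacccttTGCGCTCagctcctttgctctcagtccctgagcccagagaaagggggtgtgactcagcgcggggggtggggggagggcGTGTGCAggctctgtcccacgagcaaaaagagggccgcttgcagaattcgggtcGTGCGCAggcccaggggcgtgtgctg
Mt1: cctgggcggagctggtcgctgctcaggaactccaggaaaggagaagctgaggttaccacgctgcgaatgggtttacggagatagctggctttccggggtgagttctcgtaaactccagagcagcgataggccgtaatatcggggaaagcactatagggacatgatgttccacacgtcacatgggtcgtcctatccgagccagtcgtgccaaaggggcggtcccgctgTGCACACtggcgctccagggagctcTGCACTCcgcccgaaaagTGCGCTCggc
Mt2 holds 4 matches and Mt1 holds 3, none of which overlap, while 24.2% of promoters hold at least 1. These are matches of letters and say nothing of which elements were in use.

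Mt2 stood at 3.95, 3.80, 3.85 and 3.70 in VCF lungs, 3.26, 3.68 and 4.01 in CCF lungs, and 3.63, 3.21, 3.27 and 3.39 in RCF lungs, against 4.83, 4.49 and 4.30 in Ctrl lungs. All 11 fibre lungs lay below the Ctrl lungs. The difference was -0.92 (SE 0.16, adjusted p = 0.124 in limma), with -0.72, -0.89 and -1.16 in VCF, CCF and RCF. It was -1.39, -0.94 and -0.47 within slides 1, 2 and 3. Mt1 lay between 3.30 and 4.32 in fibre lungs and at 4.48, 4.24 and 4.58 in Ctrl lungs. VCF replicate 1 fell inside the Ctrl range and the other 10 fibre lungs lay below it, for a difference of -0.56 (SE 0.17, adjusted p = 0.583 in limma). The wider metal response list did not share this: of 8 genes measured, 3 were above 0 and 5 below, with a median of -0.12, and of -0.06 without Ctrl replicate 1 or without Ctrl replicate 3.

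Genes that Nrf2 is known to activate leaned the same way by smaller amounts. All 20 measured were below 0, with a median of -0.18, where 56% of all genes were below 0. At an unadjusted p under 0.05, 4 were lower and 0 higher, beside 2.88% and 2.92% of all genes, and none passed over all probes. Hmox1, the inducible haem-degrading enzyme, stood at 2.24, 2.20, 2.48 and 2.29 in VCF lungs, 2.44, 2.40 and 2.43 in CCF lungs, and 2.30, 2.16, 2.26 and 2.13 in RCF lungs, against 3.15, 2.62 and 2.57 in Ctrl lungs. All fibre lungs were below the Ctrl lungs, of which replicate 1 was far the highest. The difference of -0.47 (SE 0.12) became -0.28 without Ctrl replicate 1. The carbonyl reductase Cbr3 at -0.55 (SE 0.17) and the sulfiredoxin Srxn1 at -0.40 (SE 0.14) also shrank without that lung, to -0.34 and -0.22. Osgin1, an oxidative stress growth inhibitor, differed by -0.32 (SE 0.11). The list score was 0.33 in Ctrl replicate 1, against -0.17 and -0.16 in Ctrl replicates 2 and 3, and between -0.32 and -0.17 in fibre lungs. Apart from replicate 1, the Ctrl lungs thus lay at the upper edge of the fibre range.

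Antioxidant enzymes as a list had a median of -0.08 over 15 genes, with 12 below 0. At an unadjusted p under 0.05, 1 was lower, beside 2.88% of all genes. That gene was Glrx, a glutaredoxin, at -0.30 (SE 0.12), or -0.17 without Ctrl replicate 1. The list median was -0.04 without that lung and -0.14 without Ctrl replicate 2. Of 16 genes of cytochrome P450 and xenobiotic response, 11 were below 0, with a median of -0.18. Leaving out Ctrl replicate 1 made it -0.11, and leaving out Ctrl replicate 3 made it -0.05. Cyp1b1, a P450 enzyme induced through the aryl hydrocarbon receptor, lay between -1.18 and -0.75 in fibre lungs (median -0.86) and at -0.45, -0.36 and -0.44 in Ctrl lungs. These 3 Ctrl values were tight, the groups did not overlap, and the difference was -0.46 (SE 0.09, adjusted p = 0.276 in limma). Cyp2b10, another inducible P450, differed by -0.42 (SE 0.13), with CCF replicate 1 above all Ctrl lungs and the other 10 fibre lungs below them.

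**Figure D3:**
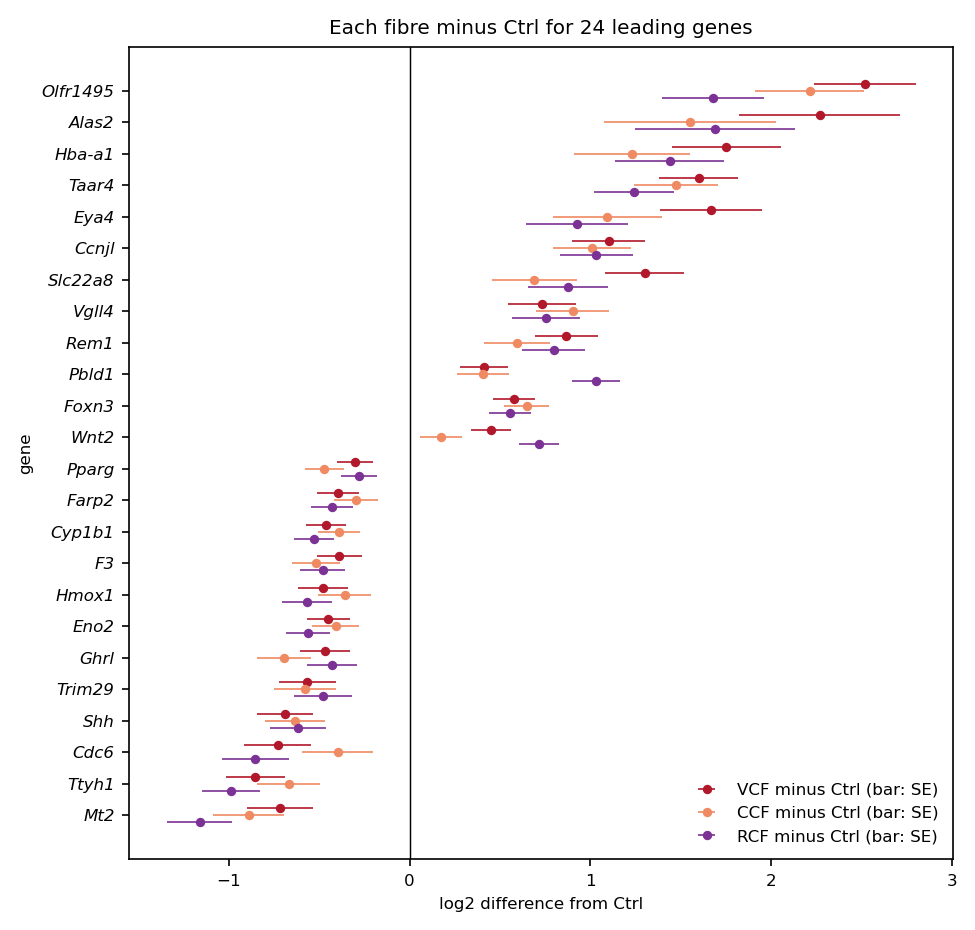
Log2 difference of each fibre group from Ctrl (horizontal, bars SE) for 24 genes, 12 in each direction, with the smallest p among genes whose 11 fibre lungs all lay apart from Ctrl. The 3 fibre groups lie on one side of 0 for each gene, as the choice requires, and Pbld1 and Wnt2 show the RCF value (1.03 and 0.72) well to the right of the CCF value (0.41 and 0.17).

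Genes of alveolar macrophages were lower in every fibre lung when taken as a list. Of 20 measured, 19 were below 0, with a median of -0.29, and 7 were lower and 0 higher at an unadjusted p under 0.05, beside 2.88% and 2.92% of all genes, again with none passing over all probes. The list score lay between -0.40 and -0.15 in VCF lungs, -0.56 and -0.33 in CCF lungs, and -0.29 and -0.15 in RCF lungs, against -0.06 to 0.06 in Ctrl lungs. The fibre and Ctrl lungs did not overlap. The median was -0.26, -0.20 and -0.33 within slides 1, 2 and 3, and no alternative moved it by more than 1.5 times.

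Pparg, a nuclear receptor needed for alveolar macrophage identity, stood at 1.44, 1.26, 1.47 and 1.50 in VCF lungs, 1.27, 1.16 and 1.30 in CCF lungs, and 1.46, 1.46, 1.29 and 1.54 in RCF lungs, against 1.69, 1.73 and 1.73 in Ctrl lungs. The groups did not overlap, and the difference was -0.35 (SE 0.09, adjusted p = 0.422 in limma). Krt79, a keratin gene expressed in mouse alveolar macrophages, lay between 0.55 and 1.25 in fibre lungs and at 1.53, 1.62 and 1.33 in Ctrl lungs. No fibre lung reached the Ctrl range, and the fibre groups gave nearly equal differences of -0.58, -0.58 and -0.54 in VCF, CCF and RCF. Atp6v0d2, part of the pump that acidifies lysosomes, differed by -0.67 (SE 0.20) and Ear1, a ribonuclease gene, by -0.52 (SE 0.16). Ear1 was lowest in CCF lungs (-0.93, against -0.34 in VCF and -0.29 in RCF), and without the 4 lungs high in liver, thymus or adipose genes its difference was -0.34. The scavenger receptor Marco and the lectin Siglecf, also markers of these cells, differed by -0.53 (SE 0.33) and -0.59 (SE 0.44). These SEs were large beside the differences. Fabp4, a fatty acid carrier of both macrophages and fat, was the 1 gene above 0, at 0.24 (SE 0.56).

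Monocyte and interstitial macrophage genes had a median of -0.38, with 16 of 18 below 0 and 4 lower at an unadjusted p under 0.05, where 56% of all genes were below 0 and 2.88% lower at that level. Cd14, the co-receptor for bacterial lipopolysaccharide, lay between 2.42 and 3.00 in fibre lungs and at 3.32, 3.33 and 2.93 in Ctrl lungs. Among fibre lungs CCF replicate 2 alone stood above the lowest Ctrl lung, and the difference was -0.45 (SE 0.13). Ly6c2, a monocyte surface antigen, differed by -0.32 (SE 0.12) and Lyve1, a marker of perivascular macrophages and lymphatic vessels, by -0.47 (SE 0.18). Lyve1 was -0.21 without Ctrl replicate 1. The list median was -0.25 without Ctrl replicate 2. It turned within slide 3, to 0.06, where Ctrl replicate 3 had a score of -0.32, inside the fibre range of -0.71 to 0.15. Genes of phagocyte lysosomes and lipid handling had a median of -0.13, and -0.23 without Ctrl replicate 3, with 17 of 19 below 0. Among them Ctsd, the lysosomal protease cathepsin D, lay between 5.32 and 5.66 in fibre lungs and at 5.83, 5.83 and 5.64 in Ctrl lungs. All but CCF replicate 3 lay below the Ctrl lungs, and the difference was -0.22 (SE 0.09). The second Ctsd probe gave -0.09 (SE 0.17).

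**Figure D4:**
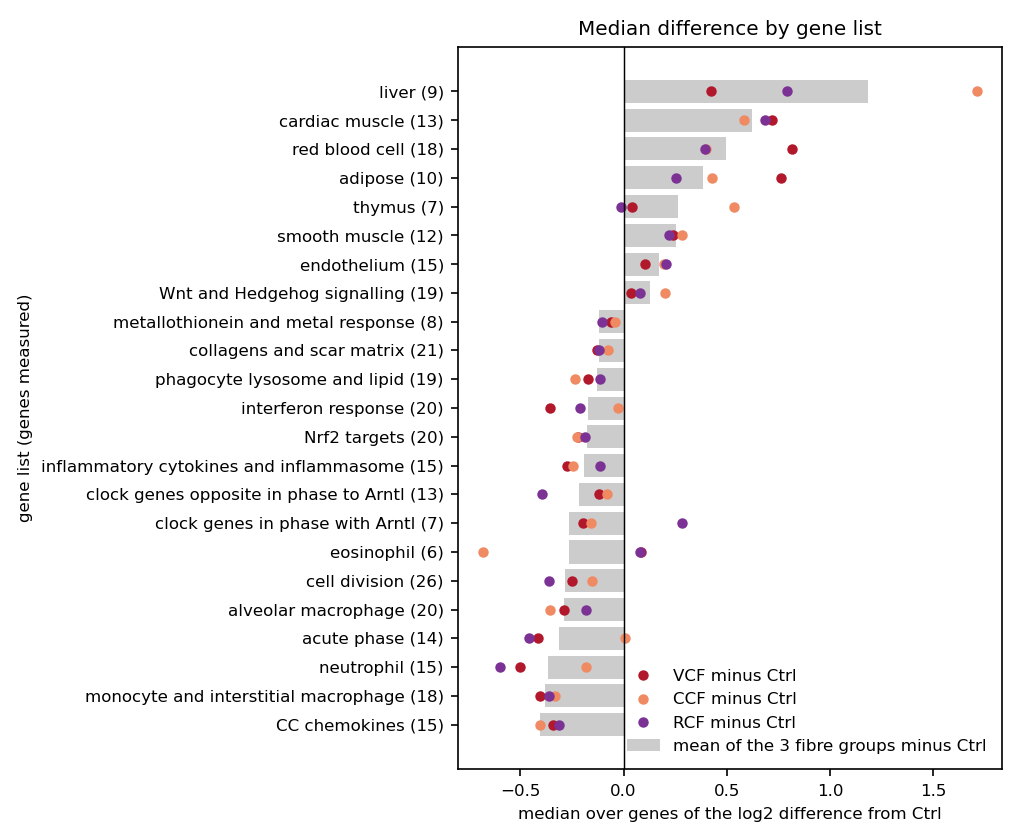
Median over the measured genes of each list (number in brackets) of the log2 difference from Ctrl, with a grey bar for the mean of the 3 fibre groups and a point for each fibre group. CC chemokines (-0.40) and monocyte genes (-0.38) lie lowest and liver (1.18) and cardiac muscle (0.62) genes highest, beside a median of -0.02 over all genes.

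No inflammatory list stood higher in fibre lungs. CC chemokines, which attract monocytes, eosinophils and lymphocytes, had a median of -0.40 over 15 genes, with 12 below 0 and 4 lower at an unadjusted p under 0.05, beside 2.88% of all genes. Ccl6 differed by -0.61 (SE 0.21), the monocyte attractant Ccl12 by -0.75 (SE 0.27) and the T cell attractant Ccl17 by -0.74 (SE 0.27). These values leaned on single Ctrl lungs. Ccl17 was -0.40 and Ccl6 -0.34 without Ctrl replicate 1, Ccl12 was -0.47 without Ctrl replicate 2, and Ccl17 and Ccl6 were both 0.10 within slide 3. Leaving out Ctrl replicate 2 gave a list median of -0.09, and leaving out Ctrl replicate 3 gave -0.78.

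Cytokine and inflammasome genes had a median of -0.19, with 12 of 15 below 0, and included the cytokine Il18 at -0.39 (SE 0.15) and the inflammatory caspase Casp4 at -0.35 (SE 0.16). Acute phase genes had a median of -0.32, with 13 of 14 below 0, among them complement factor Cfb at -0.49 (SE 0.21) and the iron-sequestering lipocalin Lcn2 at -0.78 (SE 0.37). Without Ctrl replicate 2 these were -0.32 and -0.48. By fibre the acute phase median was -0.42 in VCF, 0.0052 in CCF and -0.46 in RCF, with 7 of 14 genes below 0 in all 3. Interferon response genes had a median of -0.17, with 17 of 20 below 0, and Ifit3, an interferon-induced gene, differed by -0.38 (SE 0.13). By fibre the interferon median was -0.36 in VCF, -0.03 in CCF and -0.21 in RCF, with 7 of 20 genes below 0 in all 3. In type 2 genes the median was -0.19, with 12 of 14 below 0, including the chitinase-like Chil4 at -0.39 (SE 0.14) and the mannose receptor Mrc1 at -0.30 (SE 0.14), or -0.18 without Ctrl replicate 2. Over all genes 56% were below 0. None of these lists had more than 2 genes lower at an unadjusted p under 0.05, beside 2.88% of all genes. The scores of all 4 lists overlapped between fibre and Ctrl lungs, and the joint medians of the first 3 lists turned above 0 within slide 3. Single Ctrl lungs moved all 4 medians: the acute phase median was -0.12 and the interferon median -0.06 without Ctrl replicate 1, the type 2 median was -0.12 without Ctrl replicate 2, and the cytokine median was -0.36 and the interferon median -0.35 without Ctrl replicate 3. The interferon median was also -0.07 without CCF replicate 2. Neutrophil genes had a median of -0.37, of 0.16 without Ctrl replicate 1, the lung high in them, and of -0.67 without Ctrl replicate 3.

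Eosinophil genes did not share a direction between the fibres, with medians of 0.09 in VCF, -0.68 in CCF and 0.08 in RCF. Their joint median of -0.27 became 0.03 when Ctrl replicate 2 was left out, -0.48 when Ctrl replicate 3 was and -0.13 when CCF replicate 1 was. Ear6, a ribonuclease gene of the eosinophil family, was lower in 10 of 11 fibre lungs, by -0.58 (SE 0.16). Alox15, a lipoxygenase of eosinophils and resident macrophages, differed by 0.90 in VCF, -0.25 in CCF and 1.83 in RCF, with 9 of 11 fibre lungs well above background. Its difference of 0.83 was -0.0059 with normexp correction. Cell division genes were all below 0, 26 of 26, with a median of -0.29, where 56% of all genes were below 0. Only 1 was lower at an unadjusted p under 0.05, beside 2.88% of all genes. That was Bub1b, a checkpoint kinase of mitosis, at -0.33 (SE 0.15), or -0.21 without the 4 lungs high in liver, thymus or adipose genes. Mki67, the usual marker of dividing cells, lay between -0.17 and 0.78 in fibre lungs and at 1.23, 1.00 and 0.31 in Ctrl lungs, so the low Ctrl replicate 3 fell within the fibre range. The list median was 0.17 within slide 3. Leaving out Ctrl replicate 1 gave -0.17, and leaving out Ctrl replicate 3 gave -0.50. Cdc6, which loads the replicative helicase and is not in that list, lay below all Ctrl lungs in 11 of 11 fibre lungs, by -0.66 (SE 0.16).

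**Figure D5:**
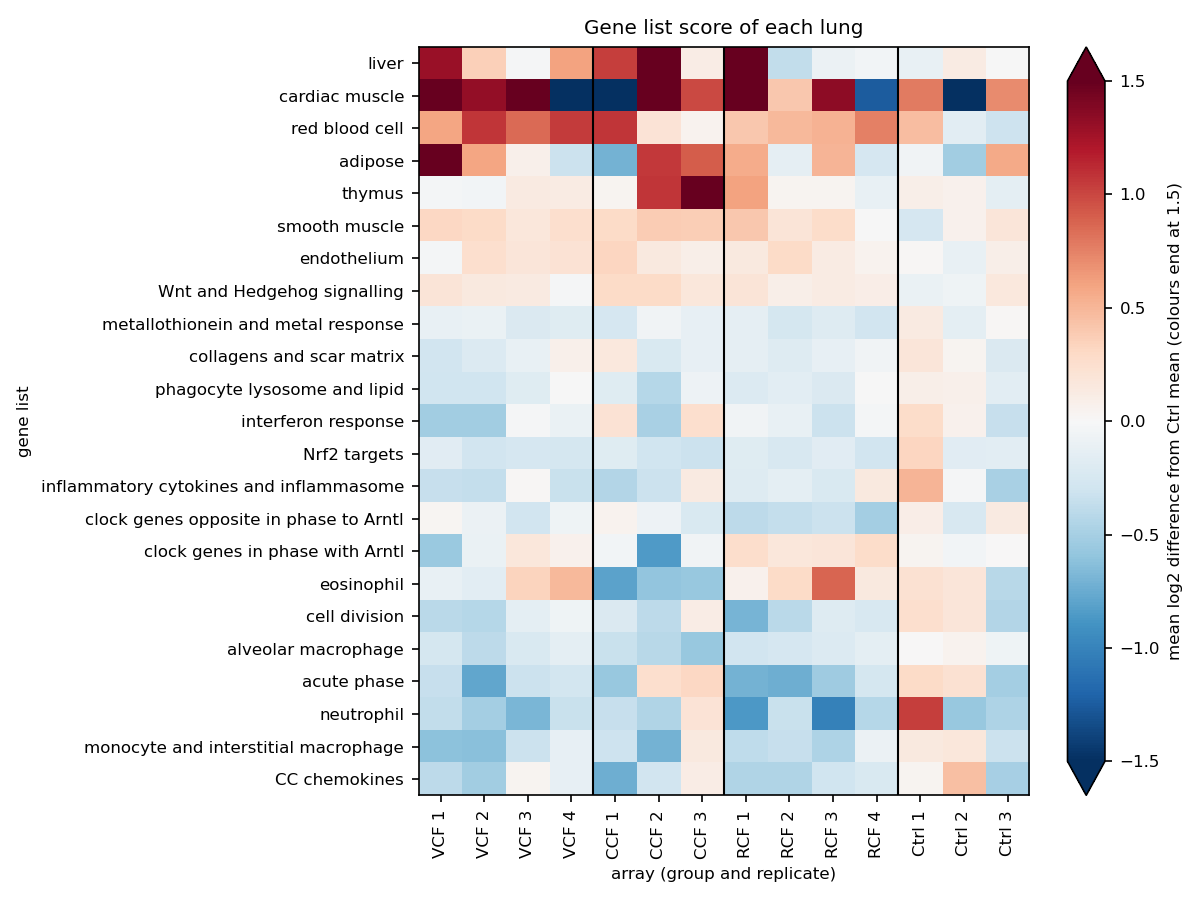
Score of each gene list (rows) on each array (columns, fibre groups left of Ctrl), as the mean log2 difference from the Ctrl mean. The alveolar macrophage row is below every Ctrl value in all 11 fibre lungs, while the liver, thymus and adipose rows are high in a few fibre lungs, the cardiac muscle row varies widely in all groups, and the 3 Ctrl lungs differ among themselves in the inflammatory rows.

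Among vessel and airway wall genes the differences were small and mostly upward. Smooth muscle genes had a median of 0.26, with 11 of 12 above 0 and 3 higher at an unadjusted p under 0.05, where 44% of all genes were above 0 and 2.92% higher at that level. Mylk, the kinase that starts smooth muscle contraction, lay between 3.70 and 4.24 in fibre lungs and at 3.58, 3.73 and 3.76 in Ctrl lungs. The difference was 0.33 (SE 0.11), with only RCF replicate 4 inside the Ctrl range. Myocd, the co-activator of the smooth muscle programme, differed by 0.74 (SE 0.25) and the cytoskeletal gene Smtn by 0.34 (SE 0.13). Myocd was 0.04 with normexp correction and 0.42 without those 4 lungs, and Smtn was 0.16 without Ctrl replicate 2. The list median was 0.05 without Ctrl replicate 1 and -0.02 within slide 2. Endothelial genes had a median of 0.17, with 11 of 15 above 0 and 3 higher at that level. They were the peptide hormone gene Apln at 0.41 (SE 0.12), its receptor Aplnr at 0.59 (SE 0.21) and the arterial transcription factor Sox17 at 0.30 (SE 0.13). Without Ctrl replicate 1 Aplnr was 0.37 and Sox17 0.20. The other Sox17 probes gave 0.07 and 0.05, and the other Aplnr probe gave 0.30. Apln lay above all Ctrl lungs in 10 of 11 fibre lungs and Aplnr in 8 of 11.

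Matrix genes gave no shared upward difference. Collagens and scar matrix genes had a median of -0.12, with 8 of 21 above 0 and 13 below. Single lungs decided that median. It became -0.03, 0.0036 and -0.22 when Ctrl replicates 1, 2 and 3 were left out in turn, and -0.07 when CCF replicate 3 was. Eln, which encodes elastin, lay between -0.99 and 0.30 in fibre lungs and at 0.78, 0.00 and -0.16 in Ctrl lungs, a difference of -0.66 (SE 0.24) that was -0.37 without Ctrl replicate 1. Fibroblast genes had a median of 0.16, or 0.08 without Ctrl replicate 3, with 11 of 13 above 0, beside 44% of all genes. The proteoglycan gene Lum differed by 0.59 (SE 0.23), or 0.31 without the 4 lungs named above.

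The Wnt and Hedgehog list held genes apart from Ctrl in both directions. Shh, the Hedgehog ligand made by airway and alveolar epithelium, stood at -1.79, -1.90, -1.56 and -2.16 in VCF lungs, -1.82, -1.86 and -1.71 in CCF lungs, and -1.73, -1.69, -1.90 and -1.80 in RCF lungs, against -0.87, -1.39 and -1.23 in Ctrl lungs. All fibre lungs lay below the Ctrl lungs. The difference was -0.65 (SE 0.13, adjusted p = 0.273 in limma), with -0.69, -0.63 and -0.62 in VCF, CCF and RCF. Its known targets Ptch1, Gli1 and Hhip did not go the same way, at 0.32 (SE 0.18), 0.23 (SE 0.18) and 0.18 (SE 0.11). Wnt2, a ligand made by lung fibroblasts, lay between 2.30 and 3.08 in fibre lungs and at 2.16, 2.21 and 2.21 in Ctrl lungs. It was higher by 0.45 (SE 0.09), and least so in CCF (0.17, against 0.45 in VCF and 0.72 in RCF). Wnt5a differed by 0.80 (SE 0.31), and by -0.10 with normexp correction. The list as a whole had a median of 0.13, with 15 of 19 above 0, beside 44% of all genes. That median was 0.21 without Ctrl replicate 3 and -0.01 with normexp correction.

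Among clock genes 1 stood out. Arntl (Bmal1), the activator at the centre of the circadian clock, lay between -1.90 and -0.80 in fibre lungs (median -1.36) and at -2.13, -1.76 and -2.26 in Ctrl lungs. In 10 of 11 fibre lungs it was above all Ctrl lungs, with VCF replicate 1 inside their range. The difference was 0.68 (SE 0.13, adjusted p = 0.273 in limma), and it was largest in RCF (1.08, against 0.57 in CCF and 0.39 in VCF). Genes that peak roughly opposite to Arntl had a median of -0.21, or -0.33 without Ctrl replicate 2, with 11 of 13 below 0, beside 56% of all genes. Tef and Dbp, transcription factors at the output of the clock, differed by -0.34 (SE 0.10) and -0.34 (SE 0.13), and the deubiquitinase gene Usp2 by -0.46 (SE 0.19). Usp2 was -0.26 without Ctrl replicate 3, and its second probe gave -0.10. Genes in phase with Arntl had a joint median of -0.26, with 3 of 7 above 0. That median was 0.10 with slides as blocks or without CCF replicate 2, and -0.09 without Ctrl replicate 1. The fibres did not share a sign, at -0.20 in VCF, -0.16 in CCF and 0.28 in RCF. The opposite set gave -0.12, -0.08 and -0.40. In RCF lungs the in-phase scores lay between 0.17 and 0.28, against -0.04 to 0.04 in Ctrl lungs. Arntl itself is among the 7 in-phase genes, so its own difference is part of these scores, and they are not separate from it. The opposite scores lay between -0.51 and -0.32 in RCF lungs, against -0.24 to 0.13 in Ctrl lungs. The hour at which lungs were taken is not given in the sources used here, and its part in these values was not tested.

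Among 17 heat shock genes 3 were higher at an unadjusted p under 0.05, beside 2.92% of all genes. The inducible chaperones Hspa1a and Dnajb1 differed by 1.48 (SE 0.41) and 0.61 (SE 0.19), and the near-identical gene Hspa1b, which may share signal with Hspa1a, by 1.46 (SE 0.46). Hspa1a lay between 1.28 and 3.61 in fibre lungs and at 1.66, 1.04 and 1.82 in Ctrl lungs, with CCF replicate 3 inside the Ctrl range and the other 10 fibre lungs above it. The list had a median of -0.02, with 7 above 0 and 10 below.

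Further genes with all 11 fibre lungs apart from Ctrl came from no single list. Higher were Ccnjl, a cyclin-like gene, by 1.05 (SE 0.17, adjusted p = 0.124 in limma), Foxn3, a forkhead repressor, by 0.59 (SE 0.10, adjusted p = 0.124) and Vgll4, a cofactor that restrains YAP signalling, by 0.80 (SE 0.16). Foxn3 lay between 1.42 and 1.78 in fibre lungs and at 1.14, 1.03 and 0.84 in Ctrl lungs, and its second probe also gave 0.59. The small GTPase Rem1 differed by 0.75, the organic anion transporter Slc22a8 by 0.96, the transcriptional co-activator Eya4 by 1.23 and Pbld1 by 0.62. With normexp correction Eya4 was -0.012, Pbld1 0.02, Rem1 0.18, Slc22a8 0.35 and Ccnjl 0.52. Lower were F3, which encodes tissue factor, the trigger of coagulation, by -0.46 (SE 0.11), the neuron-type enolase Eno2 by -0.47 (SE 0.10), the ghrelin gene Ghrl by -0.53 (SE 0.12) and Trim29 by -0.54 (SE 0.14). F3 lay between 1.98 and 2.49 in fibre lungs and at 2.78, 2.57 and 2.83 in Ctrl lungs, with no overlap. Trim29 was -0.31 without Ctrl replicate 2. Ttyh1, a chloride channel gene, differed by -0.84 (SE 0.14) with 7 of 11 fibre lungs well above background, and Farp2 by -0.37 (SE 0.10). With normexp correction they were -0.38 and -0.22. The rule also took Nat8 (-0.57), Irx6 (-0.53) and Nupl2 (-0.49), for the size of their smallest fibre difference.

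Liver, cardiac muscle and adipose genes gave large medians of 1.18, 0.62 and 0.38 but varied widely between lungs, and the cardiac score ran between -2.24 and 2.19 in fibre lungs and between -1.61 and 0.78 in Ctrl lungs. Of 9 liver genes measured, 5 were well above background on all 14 arrays. The liver median was 0.18 over probes well above background on all arrays and 0.20 with normexp correction, so its size rests on dim genes. Fgb, which encodes part of fibrinogen, differed by 2.33 (SE 1.25), and stood at -0.64 in CCF replicate 2 and -1.16 in RCF replicate 1, against a median of -5.35 over the fibre lungs and -6.86 over the Ctrl lungs. Cyp3a41a, a hepatic P450, was above all Ctrl lungs in 11 of 11 fibre lungs, by 1.73 (SE 0.95), and by 0.92 without the 4 lungs high in liver, thymus or adipose genes. The fat droplet gene Plin1 differed by 0.82 (SE 0.59) and the heart calcium channel Ryr2 by 0.62 (SE 0.74). Neither was near the threshold (adjusted p = 0.850 and 0.914 in limma). A second, dim Ryr2 probe gave -0.40 (SE 0.54). At their brightest probes Plin1 and Ryr2 were smaller without Ctrl replicate 2, at 0.41 and 0.15. The cardiac median was -0.07 without that lung, and the liver median became 0.77 when Ctrl replicate 1 was left out and 0.71 when Ctrl replicate 3 was. Without those 4 lungs the medians were 0.38 for liver, -0.36 for cardiac muscle and -0.08 for adipose genes, while that for alveolar macrophage genes remained within 1.5 times its value and that for red blood cell genes was 0.90.

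Whether the 3 fibres differed from one another was tested directly with a moderated F-test in limma. It passed 0 of 29271 probes, the smallest adjusted p was 0.292, and 2006 probes (6.85%) had an unadjusted p under 0.05. Among the named genes the smallest adjusted p from this limma F-test was 0.588. In Pbld1 RCF minus CCF was 0.62 with a 95% interval of 0.34 to 0.91. Wnt2 followed at 0.54 (0.30 to 0.78) for RCF minus CCF, Arntl at 0.69 (0.38 to 1.00) for RCF minus VCF and Ccl12 at -1.15 (-1.77 to -0.52) for RCF minus VCF. For the leading shared genes the widest fibre difference was -0.52 (-1.17 to 0.13) in Hba-a1 and -0.72 (-1.68 to 0.25) in Alas2, both CCF minus VCF. It was -0.45 (-0.81 to -0.08) in Mt2 and 0.07 (-0.24 to 0.38) in Shh, both RCF minus VCF. These intervals are not adjusted for the choice of pair, nor for the choice of gene among the 77 named.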

How the data were processed

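Each of 14 lungs was hybridized to 1 array. Scanner files deposited by the authors hold processed spot intensity, background-subtracted and not normalized between arrays, and the file headers name Agilent Feature Extraction 10.7.3.1. The authors' deposited table is on a log2 scale: 100% of its 27496 probes equalled log2 of the processed intensity minus 1 constant per array within 0.01. How its probes were chosen is not given in the sources used here.

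Here log2 intensity was scaled by subtracting the 75th percentile of the array, taken without control probes. Spots of a probe were averaged (43379 spots, 41174 probes) after 1639 control spots and outlier-flagged spots were left out. No spot was saturated. Probes well above background on at least 3 of 14 arrays were tested (29271, of which 124 lacked a value on some array). Symbols came from RefSeq transcripts on GRCm38.p6 (24844 probes with 1 symbol, 16330 with none). The array design was built on another assembly, so no coordinates were taken for probes.

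limma 3.58.1 in R 4.3.3 fitted the 4 groups together (10 residual and 2.39 prior degrees of freedom). The contrast was the mean of the 3 fibre groups minus Ctrl, tested two-sided, with Benjamini-Hochberg adjustment over all tested probes. On simulated arrays 56% of log2 changes of 1 and 89% of changes of 2 were found (100 each among 29147 probes), and 4 unchanged probes were called. The simulated noise was normal and independent between probes. It held no slide effects and no lungs high in genes of other tissues, so these shares need not hold for the real arrays.

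Members and lists were chosen with earlier results of these data known. Named genes were the 12 in each direction with the smallest p and the 8 in each direction with the largest smallest fibre difference, among genes with all fibre lungs apart from Ctrl and above background on the brighter side. Up to 4 members of each described list with the smallest p were added. Other members given from a list, and Hbb-bt, fall outside this rule, their values having been seen first. A gene was read at its brightest probe. Some members of the red blood cell list count in its summary but are not reported here by name. Alternatives were normexp correction (offset 50, on median spot and local background signals), other normalizations and filters, blocks, priors, weights and left-out arrays. Promoter windows came from RefSeq on GRCm38.p6. Figures used Python 3.11.15 and matplotlib 3.10.9, and correlations scipy 1.17.1.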

Additional observations from a re-analysis of the deposited data

Results flagged for a closer look

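Of 154 pairs of a named gene and a 4-lung fibre group, 6 had 1 lung far from the other 3, where chance flags about 1 in 20, or 7.7 of them. Ccnjl was low in VCF replicate 1, at a relative log2 signal of -2.55, with the other VCF lungs between -1.85 and -1.71. Cyp1b1 was low in RCF replicate 3, at -1.18, with the others between -0.90 and -0.85. Ryr2, the cardiac calcium channel, was low in VCF replicate 4, at -4.32, with the others between -1.23 and -0.83. Cyp3a41a was high in VCF replicate 1, at -4.09 with the others between -5.67 and -5.57, and in RCF replicate 1, at -1.21 with the others between -5.96 and -5.80. Fgb was high in RCF replicate 1 too, at -1.16, with the others between -6.59 and -6.56. RCF replicate 1 had a liver list score of 3.08 and VCF replicate 1 of 1.29.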

How the results depend on the processing

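The count of probes past the threshold, 1, was 0 with normexp correction, quantile or cyclic loess normalization, probes well above background on all arrays, the slide as a block, the replicate block, the 11 fibre arrays weighted equally, the fit without VCF replicate 1, CCF replicates 2 and 3 and RCF replicate 1 together, and an exact rank test of each probe (smallest adjusted p 0.748). It was 1 in the authors' deposited table, 2 with no filter or with array position as a block, 3 with array weights and 5 with a trended and robust prior. Leaving out each array in turn gave 0 to 12, with 10 without CCF replicate 1, 12 without CCF replicate 3 and 0 without any Ctrl array. At an unadjusted p under 0.05, a level added after the data were seen, it was 1950. The F-test among fibres gave 0 in the other settings named here, leaving aside the equally weighted fit and the rank test, in which it was not run, and gave 0 to 1 with an array left out, and 2006 unadjusted. Replicate numbers gave no clear pairing of the lungs. Deviations of the 19 pairs of lungs from different groups with the same number correlated between -0.37 and 0.35, with a median of 0.051. The 54 pairs with other numbers had a median of 0.003. Of 14 lungs, 7 correlated best with a lung of their own number, a share that was not compared with chance. Of all pairs from different groups, the 18 that shared a slide had a median correlation of 0.124 and the 55 that did not had one of -0.08. Of 77 named genes, 67 kept their direction throughout. The 10 that turned did so once each, with normexp correction for Eya4 (-0.012), Alox15 (-0.0059) and Wnt5a (-0.10), within slide 2 for Ryr2 (-0.32), and within slide 3 for Ly6c2 (0.032), Lcn2 (0.14), Ccl6 (0.10), Ccl17 (0.10), Mki67 (0.15) and Ccna2 (0.20). Slide 3 holds Ctrl replicate 3. The causes were not tested. Of 28 list medians, 9 kept their sign in every setting. Signals near background are a limit for dim genes, the receptor genes among them. The normexp setting adds an offset of 50, beside median array intensities of 48.7 to 89.8. That offset by itself shrinks log2 differences of dim genes, so their shrinkage with it is no separate test of background. No probe passed in that setting, and Hba-a1 had an adjusted p of 0.999971 in limma there at a difference of 1.60.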

Other observations

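Over the 11 fibre lungs, 5 relations with Hba-a1 are given, chosen after values had been seen. Hba-a1 and Alas2 gave Pearson's r of 0.954 (permutation p = 2e-05, the smallest these resamples can give, adjusted 0.0001) and Spearman's rho of 0.973 (permutation p = 2e-05, adjusted 0.0001), and r was 0.913 without the 2 lungs farthest from the median of Hba-a1. The relation did not pass for Olfr1495 (r = 0.524, permutation p = 0.107, adjusted 0.179), Taar4 (r = 0.547, permutation p = 0.0983, adjusted 0.179) or Shh (r = -0.276, permutation p = 0.401, adjusted 0.401). Their rho values were 0.555 (adjusted 0.207), 0.418 (adjusted 0.339) and -0.300 (adjusted 0.465).

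For Mt2 and Hba-a1 the relation did not pass over the pooled fibre lungs (r = -0.387, permutation p = 0.237, adjusted 0.296; rho = -0.218, permutation p = 0.513, adjusted 0.513). After subtracting the mean of each fibre group r was -0.949, so that within groups the lungs with more Hba-a1 signal had less Mt2 signal. An exact permutation of lungs within groups gave p = 0.000289, which is the smallest that 3456 arrangements can give, or 0.00145 adjusted over the 5 relations. It was -0.899 without the 2 lungs farthest from their group mean in Hba-a1. The other 4 relations had adjusted values between 0.00217 and 0.333 by the same permutation. With slide means removed instead, r was -0.116 (exact permutation within slides p = 0.720). With both group and slide means removed it was -0.932, so the relation appears once group means are removed. Under that removal the other relations gave 0.984 for Alas2, 0.961 for Olfr1495, 0.637 for Taar4 and 0.305 for Shh. Few free values remain among 11 lungs once both sets of means are removed, and r with both removed was not tested. With slide means removed Hba-a1 and Alas2 gave r of 0.972 (exact permutation p = 0.00231, adjusted 0.0116), and Olfr1495 gave 0.782 (exact permutation p = 0.0370, adjusted 0.0926). Taar4 and Shh did not pass (adjusted 0.216 and 0.720 by exact permutation). These slide values were added after the data were seen.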
